A study of Mus musculus with 8 samples.

Results

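Remote intergenic H3K27ac regions are stretches of acetylated chromatin that lie far from any protein-coding gene. They were chosen by position alone. A region of the 3 deposited lists was a member when no GENCODE M21 transcription start site (TSS) of any gene lay in it or within 1 kb, its midpoint lay outside every protein-coding gene, and the nearest protein-coding TSS was more than 50 kb from its edge. This held for 2947 of 32196 regions (9.15% of regions and 7.00% of the base pairs). Mouse primary hepatocytes (MPH) from adult male wild-type C57Bl6 mice had been treated for 4 h with 1 µM thapsigargin or with the vehicle, 0.04% DMSO. Each treatment had 3 H3K27ac ChIP-seq libraries and 1 input library, 8 in all. The deposited lists give the position of each region and its class (H3K27ac UP, DOWN or unchanged by thapsigargin), and hold no value for a single library, so the depth and the spread between libraries are unknown.

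Acetylation of lysine 27 of histone H3 marks active promoters and enhancers. Enhancers can act on promoters over long distances, through looping of the chromatin, and genes for developmental transcription factors often sit beside long gene deserts that carry many of them. Thapsigargin blocks the SERCA pump that loads calcium into the endoplasmic reticulum (ER) and thereby provokes ER stress (ERS), to which cells respond through ATF4, CHOP, ATF6 and XBP1. AP-1 is a dimer of FOS and JUN proteins that binds enhancers after many kinds of stimulus. HNF4A and the PAR-bZIP factors, which bind D-boxes, are transcription factors of the differentiated hepatocyte.

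The labelled cell type was checked on promoters. All 8 hepatocyte markers (such as Alb and Hnf4a) had a TSS in a listed region, against 1 of 5 for Kupffer cells and leukocytes (Cd68), 1 of 4 for endothelial cells (Stab2), 0 of 4 for stellate cells and 1 of 4 for cholangiocytes (Sox9, in an UP region). The lists leave out peaks of mixed direction. A gene with no TSS in a listed region, here and below, may therefore still have an acetylated promoter. All annotated transcript starts of a gene were considered. A gene is said to have its TSS in an UP or a DOWN region when any of its starts lay there, even if another start lay in an unchanged region. Unchanged means that no start lay in an UP or DOWN region, and genes with starts in both were kept apart. TSSs of 20 of 21 genes of the unfolded protein response and ERS lay in UP regions, and that of Atf4 in an unchanged one. The direction of the lists was taken from their names, since the factor levels in the authors' code, read as written, would give DMSO relative to thapsigargin.

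3 sequences show what some of the elements counted further on look like inside changed members. Each is the central 300 bp (mm10, plus strand) of the widest member of its class with a match, among the 15 gene deserts with most changed members. Capitals mark the named element only, and the AP-1 window also holds an unmarked D-box on the opposite strand (ttgcataa). The AP-1 element lies in an UP member between Nmbr and Cited2, at chr10:17549216-17549515.
AP-1: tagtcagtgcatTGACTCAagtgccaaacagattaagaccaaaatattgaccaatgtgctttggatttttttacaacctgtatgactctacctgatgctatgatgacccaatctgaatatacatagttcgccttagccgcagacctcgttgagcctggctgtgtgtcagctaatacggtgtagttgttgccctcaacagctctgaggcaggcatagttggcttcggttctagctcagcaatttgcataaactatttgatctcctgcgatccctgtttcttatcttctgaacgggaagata
The HNF4 element lies in a DOWN member of the Zfp619 desert, at chr7:40683239-40683538.
HNF4: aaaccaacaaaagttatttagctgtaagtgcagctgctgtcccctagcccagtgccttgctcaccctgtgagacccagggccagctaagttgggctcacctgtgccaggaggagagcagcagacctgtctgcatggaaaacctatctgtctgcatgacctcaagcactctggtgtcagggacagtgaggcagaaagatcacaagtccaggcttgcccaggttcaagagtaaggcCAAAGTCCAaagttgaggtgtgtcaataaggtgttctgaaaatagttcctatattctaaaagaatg
The D-box lies in a DOWN member between Irf2bp2 and Tomm20, at chr8:126736169-126736468.
D-box: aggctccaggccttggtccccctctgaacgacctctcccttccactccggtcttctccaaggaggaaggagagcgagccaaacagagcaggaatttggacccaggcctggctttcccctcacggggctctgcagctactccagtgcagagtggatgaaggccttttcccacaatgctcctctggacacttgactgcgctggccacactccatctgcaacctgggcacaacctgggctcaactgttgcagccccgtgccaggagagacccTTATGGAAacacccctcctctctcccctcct
Of the 33 UP members in these deserts, 3 held an ATF4/CHOP match and 7 an AP-1 match in this window. Over all UP members the shares were 5.76% and 42.8%. The AP-1 share in these deserts was therefore below that of all UP members, and below the 28.1% of unchanged members. Of the 58 DOWN members, 2 held an HNF4 match and 3 a D-box, against 2.84% and 7.24% over all DOWN members.

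The first question was whether chromatin this far from genes responded to ERS as the rest did. H3K27ac was called UP at 538 members (18.3%, 95% Wilson interval 16.9 to 19.7) and DOWN at 387 (13.1%, 12.0 to 14.4), and 2022 were unchanged. Over all 32196 regions, 17.1% were UP, 10.5% DOWN and 27.6% changed. Changed members made up 31.4% (29.7 to 33.1), and 58.2% of them were UP (55.0 to 61.3). These intervals cover counting error over regions only, neighbouring regions are not independent, and unchanged means that the authors' test did not pass its false discovery rate (FDR) of 0.05.

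Set against all other regions (27.2% changed, 17% UP, 10.2% DOWN), remote regions were more often DOWN, by 2.91 percentage points (Newcombe interval 1.69 to 4.23). The difference in the UP share was 1.26 points, with an interval from -0.16 to 2.76. Of the other changed regions 62.4% were UP, and the difference in this share was -4.28 points (-7.66 to -0.97). Intergenic regions within 50 kb of a protein-coding TSS (n = 5012) had a DOWN share of 13.2%, and the difference of -0.12 points had an interval on both sides of 0 (-1.64 to 1.44). They were less often UP, at 15.7%, than remote regions (difference 2.55 points, 0.85 to 4.29). Distal regions inside gene bodies (n = 11733) were 16.1% UP and 10.6% DOWN, and both shares were below those of remote regions, by 2.15 points (0.63 to 3.73) and 2.55 points (1.24 to 3.93). At or within 1 kb of a TSS (n = 12504) the UP share was 18.3% and the DOWN share 8.66%.

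**Figure D1:**
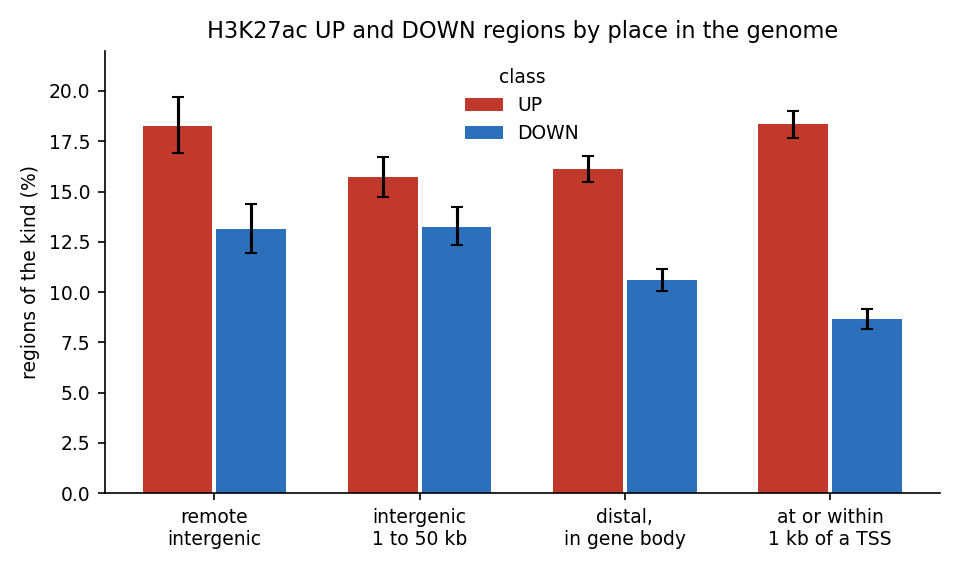
Share of regions (%) called H3K27ac UP (red) or DOWN (blue) by thapsigargin, for 4 places in the genome; bars start at 0 and error bars are 95% Wilson intervals. Remote regions were 18.3% UP and 13.1% DOWN, and the DOWN share was lowest, 8.66%, at or within 1 kb of a TSS.

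Remote regions that lost acetylation were the widest. Their median width was 1753 bp (exact 95% interval of the median 1634 to 1904, n = 387), against 1286.5 bp for UP (1204 to 1345, n = 538) and 1009.5 bp for unchanged members (980 to 1048, n = 2022). The 3 intervals did not overlap. Of the 62 members of 5 kb or more, 28 were DOWN, 13 UP and 21 unchanged. Over all regions the order was the same, with medians of 2229, 1621.5 and 1155 bp.

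The class of a member varied with its width. Among the 400 members in the narrowest of 10 width deciles of all regions (up to 412 bp), 46 were UP and 10 DOWN, so 82.1% of the changed ones were UP. Among the 143 members in the widest decile, 33 were UP and 56 DOWN, or 37.1% UP. The DOWN share rose from 2.5% to 39.2% between these deciles, while the UP share went from 11.5% to 23.1%. A wider region holds more of the windows that the authors tested, and the part this plays was not tested. Compared within deciles of width, the odds of being DOWN in remote regions were 1.70 times those of all other regions (Mantel-Haenszel interval 1.51 to 1.92; 1.33 without regard to width) and the odds of being UP 1.18 times (1.07 to 1.31). Against intergenic regions nearer to genes, the odds ratios within deciles of width were 1.21 for UP (1.07 to 1.36) and 1.01 for DOWN (0.88 to 1.16).

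**Figure D2:**
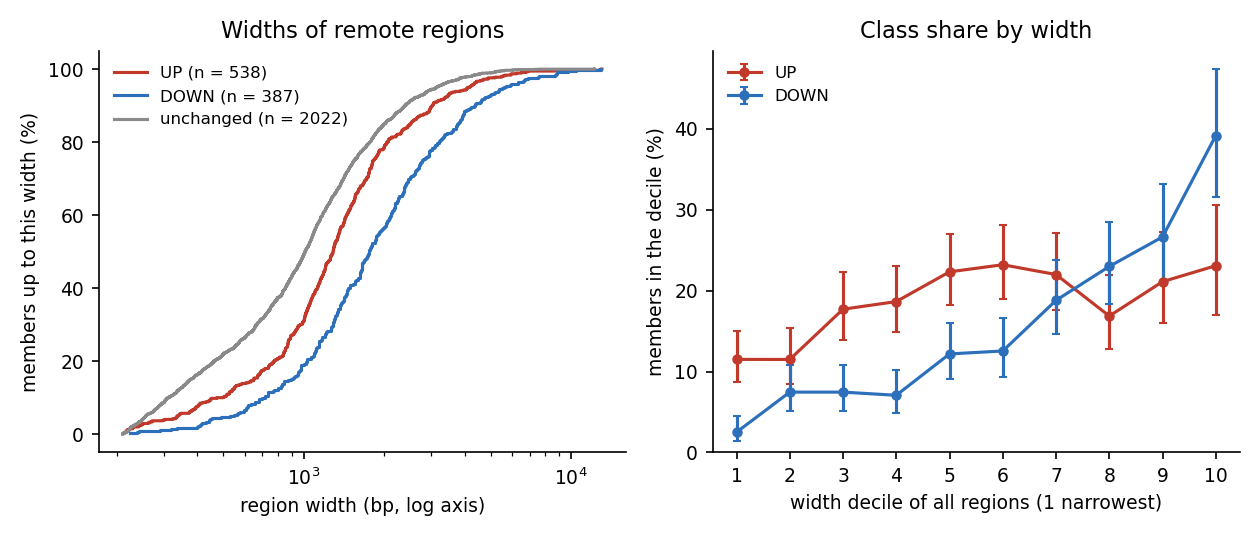
Left, the percentage of UP, DOWN and unchanged remote regions up to each width (bp, log axis); right, the UP and DOWN share (%) of remote regions in each width decile of all regions, with 95% Wilson intervals. The DOWN curve lies to the right of the others, and the DOWN share exceeded the UP share in deciles 8 to 10.

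The widest members lay near genes of varied function. The widest UP member, chr6:31118934-31131958 (13.0 kb), lay between Klf14, a Krüppel-like transcription factor gene, and Mkln1, 160 kb from the Klf14 TSS. That desert also held the third widest unchanged member, chr6:31204613-31211910 (7.30 kb), and 15 members in all, of which 3 were UP and 1 was DOWN. The next UP members were chr15:62326018-62338788 (12.8 kb), 339 kb from Myc, which drives cell growth, and chr15:64469928-64478618 (8.69 kb), 87.0 kb from Asap1. The widest DOWN members were chr8:126655727-126668684 (13.0 kb), 61.7 kb from the transcriptional co-repressor gene Irf2bp2, chr1:186580116-186590571 (10.5 kb), 59.4 kb from Tgfb2, a TGF-beta ligand, and chr4:150779527-150789250 (9.72 kb), 64.7 kb from Errfi1, a feedback inhibitor of the EGF receptor. The widest unchanged member, chr15:85667473-85679703 (12.2 kb), lay 55.3 kb from Ppara, a nuclear receptor that drives fatty acid oxidation, and the second, chr2:167759465-167767042 (7.58 kb), 69.6 kb from Tmem189.

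Class shares varied by a few points with distance beyond 50 kb. The median distance from the region edge to the nearest protein-coding TSS was 120.1 kb over all members, 125 kb for UP, 107 kb for DOWN and 122 kb for unchanged members. Between 50 and 100 kb (n = 1228), 17.0% were UP (15.02 to 19.2) and 15.1% DOWN (13.2 to 17.2). Between 100 and 200 kb (n = 870) the UP share was 19.2% (16.7 to 21.9) and the DOWN share 10.9% (9.02 to 13.2), below that of the nearer bin with intervals that almost met. From 200 to 500 kb (n = 650) the shares were 19.5% and 13.1%, and beyond 500 kb (n = 199) 17.6% and 11.1%. Of the 37 members more than 1 Mb away, 5 were UP and 7 DOWN, and 6 of those 7 are the cluster near Nmbr and Cited2 described further on. The farthest member, 1954 kb from Celf4, was UP, and the next were unchanged members 1808 kb from Pcdh10 and 1665 kb from Dsel. The members nearest the limit were regions near Aldh1a1 (50002 bp, unchanged), Ugcg (50022 bp, unchanged) and Sbf2 (50092 bp, UP), and the regions just left out lay near Nampt (at the limit itself, unchanged), Apob (49986 bp, unchanged) and Ccdc66 (49969 bp, UP).

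Members lay on 20 chromosomes. The changed share was above that of the other regions of the same chromosome on 18 of them, and the DOWN share on 15. Chromosome 13 had the most members, 270, of which 39 were UP and 55 DOWN, so that 41.5% of the changed members there were UP (32.1 to 51.6), against 64.3% of the other changed regions of that chromosome. Chromosome 5 had 31 UP and 9 DOWN members (77.5% UP, 62.5 to 87.7), against 63.7% of its other changed regions. More DOWN than UP members were also found on chromosomes 4 (22 against 21) and 17 (14 against 10).

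Changed members clustered by class. A changed member whose nearest changed member lay within 12.5 kb shared the class of that neighbour in 172 of 187 cases (92.0%, 87.2 to 95.1), compared with 85.1% (80.7 to 88.7) counted alike among intergenic regions nearer to genes and 81.2% (78.4 to 83.8) for distal regions in gene bodies. Both regions of a mutual pair are counted, so these intervals are too narrow. The members fell into 1080 deserts, here the gaps between neighbouring protein-coding genes, with a median length of 328 kb and a median of 2 members. Changed members were found in 559 deserts, with UP only in 299, DOWN only in 180 and both in 80. Of the 191 deserts with at least 2 changed members, 111 held 1 class only. An expected number was not computed, so this count alone does not show clustering.

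The 15 deserts with most changed members held 91 changed members of 256 (35.5%), 58 DOWN and 33 UP. Over all members 31.4% were changed, and ranking deserts by changed members itself favours a higher share. Ranks 10 to 24 all had 5 changed members, and ties were broken by the number of members and then by position. The 9 deserts that the ties left out held 28 UP and 17 DOWN members, so all 24 deserts with 5 or more stood at 61 UP and 75 DOWN, against 538 and 387 over all members. The 15 deserts were 202 to 2952 kb long. Of their 30 flanking genes, the TSS of 6 lay in UP regions, of 5 in DOWN regions and of 9 in unchanged regions, and 10 had no TSS in a listed region. The same counts over all protein-coding genes were not made, so these have no background beside them.

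DOWN members alone changed in 3 of these deserts. Between Irf2bp2 and Tomm20, a receptor for protein import into mitochondria, 8 of 20 members were DOWN and none UP (chr8:126593987-126930666, 337 kb). They reached from the 13.0 kb region already named to chr8:126846997-126853334, and 4 of the DOWN members had their midpoint in the lincRNA Gm31718 and 2 in A630001O12Rik, spans that can overlap. The TSSs of Irf2bp2 and Tomm20 were in unchanged regions. Between Slc45a1, a sugar transporter gene, and Errfi1, 6 of 8 members were DOWN (chr4:150652175-150853918), and they were wide, with a median of 4367 bp over the 8 members against 1126 bp over all remote regions. The Errfi1 TSS was in a DOWN region and the Slc45a1 TSS in none. Between Map3k1, a kinase upstream of JNK, and Ankrd55, 6 of 17 members were DOWN, in a group of 4 at chr13:112066609-112082740 and a pair at chr13:112187975-112193839. The Map3k1 TSS was in a DOWN region and that of Ankrd55 in an UP region.

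DOWN members also prevailed in the deserts of Cited2, Inhba and Fn1. Between Nmbr, the neuromedin B receptor gene, and Cited2, a coregulator that binds CBP/p300, 24 members were spread over 2952 kb, with 6 DOWN and 2 UP. All 6 DOWN members lay within chr10:16506225-16622663, more than 1 Mb from Cited2, and 3 of them had their midpoint in the lincRNA Gm47729. The UP members, chr10:17009791-17014210 and chr10:17548257-17550476, were nearer to Cited2, 709 and 173 kb away. The Cited2 TSS was in a DOWN region. Between Inhba, which encodes a subunit of activin A and had its TSS in a DOWN region, and Sugct, 5 of 14 members were DOWN and 1 was UP. The DOWN members stood in pairs at chr13:16280032-16292247 and chr13:16485748-16495606, and 1 of 6.74 kb at chr13:16757177-16763913. Between Fn1, the fibronectin gene, and Mreg, 4 of 18 members were DOWN and 1 was UP, with the widest DOWN member 68.3 kb from Fn1 at chr1:71721540-71725948.

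UP members prevailed in the deserts of Pgrmc2 and Rab11fip4. Between Pgrmc2, a haem-binding protein gene of the ER, and Jade1, a subunit of a histone acetyltransferase complex, 5 of 8 members were UP and 1 was DOWN (chr3:41083047-41555730). The TSSs of both genes were in UP regions. Between Rab11fip4, an effector of vesicle recycling, and Utp6, a ribosome biogenesis factor, 4 UP members lay within chr11:79750098-79794285, beside 1 DOWN member at chr11:79745882-79748484, and 10 members were unchanged. Neither gene had a TSS in a listed region, though a peak of mixed direction would not be listed. In the desert of Eci2, an enzyme of fatty acid oxidation with its TSS in an UP region, and the chromatin corepressor gene Cdyl, 3 UP members (chr13:35450908-35475978) followed directly on 2 DOWN members (chr13:35417173-35435887).

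The remaining deserts held UP and DOWN members in like numbers. The desert of Myc and Gsdmc (chr15:61990375-63775967) had the most members of all, 44, with 4 UP, 5 DOWN and 35 unchanged. Its changed share was below the 31.4% of all members. The long noncoding gene Pvt1 covered 26 of the 44, 2 UP and 2 DOWN. The UP member nearest Myc was chr15:62048281-62049585, 60.9 kb from its TSS, which was in an UP region. Between Sox9, the transcription factor gene of bile duct cells, and the zinc transporter gene Slc39a11, 3 UP and 3 DOWN members were found among 13. The UP members at chr11:113000755-113011640 were the changed members nearest Sox9, which had its TSS in an UP region, and all 3 DOWN members had their midpoint in the lincRNA 2610035D17Rik. Between Akr1e1, an aldo-keto reductase gene, and Klf6, a zinc finger factor of early response, 2 DOWN members lay nearer to Klf6 than the 3 UP members, and the Klf6 TSS was in a DOWN region. The wider DOWN member, chr13:5800895-5806249, was 55.2 kb from Klf6. Between the angiotensin receptor gene Agtr1b and Tbl1xr1, a subunit of the NCoR corepressor complex, all 5 changed members (2 UP, 3 DOWN) lay within chr3:21935191-22010871, at the Tbl1xr1 end. Between Dusp10, a phosphatase of p38 and JNK, and the homeobox gene Hlx, 3 members were DOWN, of which 2 near Dusp10, and 2 were UP. Between Zfp619 and Vstm2b, 3 of 15 members were UP and 3 DOWN.

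**Figure D3:**
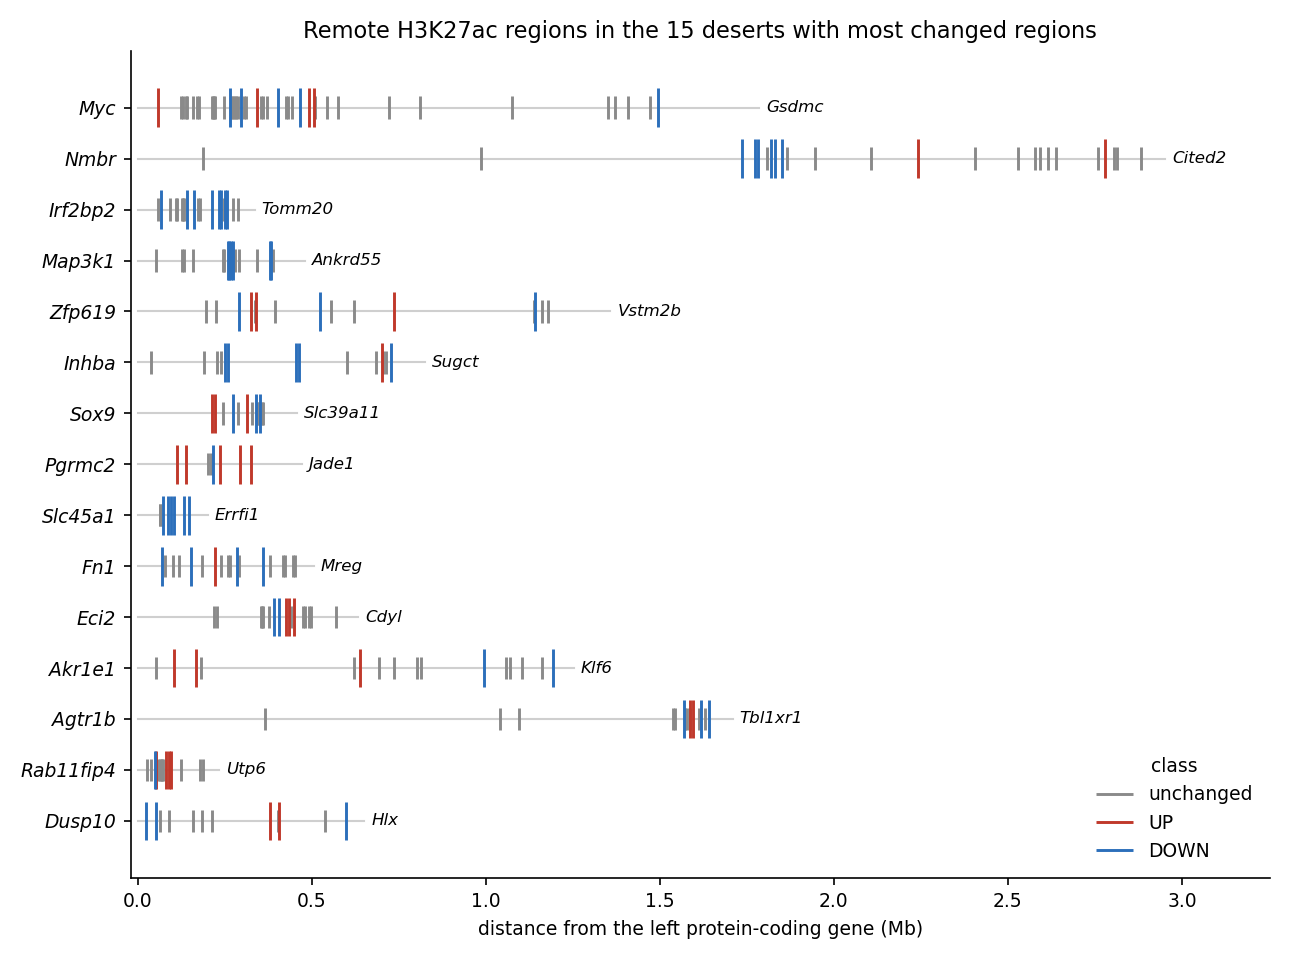
Remote H3K27ac regions in the 15 gene deserts with most changed members, as ticks at the distance of the region's midpoint (Mb) from the protein-coding gene on the left (name on the axis) towards the gene on the right; red UP, blue DOWN, grey unchanged. The 6 DOWN members of the Nmbr to Cited2 desert stand together, and DOWN alone changed in the deserts beside Irf2bp2, Map3k1 and Slc45a1.

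5 of the 9 deserts left out by the ties held a single changed class and are named here because of that, after their values were seen. All 5 members between Gpat3 and Nkx6-1 were UP, as were all 5 between Prok2 and Rybp, and the 5 changed members between Pcsk1 and Ell2, an elongation factor of RNA polymerase II, were UP. The 5 changed members between Nr2f2, an orphan nuclear receptor gene, and Gm10295 and those between Asb13 and Calml3 were DOWN.

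The next comparison asked whether any TSS of the nearest protein-coding gene lay in a region of the same class as the remote region. The nearest gene had its TSS in an UP region for 92 of 538 UP members (17.1%) and for 41 of 387 DOWN members (10.6%), a difference of 6.51 points (1.96 to 10.8). It had its TSS in a DOWN region for 35 UP members (6.51%) and 61 DOWN members (15.8%), a difference of -9.26 points (-13.6 to -5.18). Unchanged members stood at 11.8% (10.4 to 13.2) for an UP TSS, near the DOWN members, and at 10.6% (9.36 to 12.1) for a DOWN TSS, between the 2 changed classes. With each gene counted once per class, the odds ratios of UP against DOWN members were 1.84 (1.13 to 2.99) for an UP TSS and 0.404 (0.234 to 0.696) for a DOWN TSS. The same shares among intergenic regions nearer to genes were 24.5% against 10.4% for an UP TSS (odds ratio 2.80, 2.08 to 3.77) and 6.61% against 19.1% for a DOWN TSS (0.299, 0.213 to 0.421). The odds ratio for an UP TSS over remote regions was 1.74 (1.17 to 2.58). The nearest gene of 38.7% of UP and 34.6% of DOWN members had no TSS in a listed region.

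**Figure D4:**
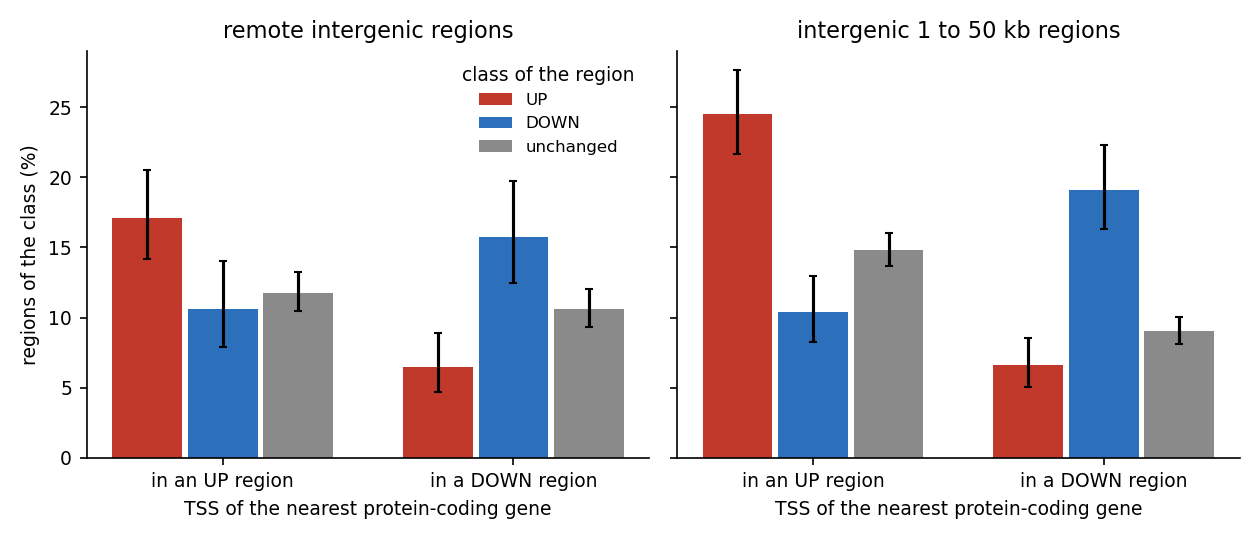
Share (%) of UP, DOWN and unchanged regions whose nearest protein-coding gene had its TSS in an UP or a DOWN region, for remote regions (left) and intergenic regions 1 to 50 kb away (right); error bars are 95% Wilson intervals. On the left, UP members stood at 17.1% for an UP TSS and DOWN members at 15.8% for a DOWN TSS.

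Of the 21 genes of the ERS list, 2 were the nearest gene of a member (9.52%, 2.65 to 28.9), against 1306 of 21938 protein-coding genes (5.95%). Hsp90b1, an ER chaperone gene with its TSS in an UP region, had 1 UP member (chr10:86611860-86613426, 82.3 kb away). Nfil3, a bZIP repressor gene that competes for D-boxes, had its TSS in an UP region and 2 DOWN members, chr13:53032597-53034874 and chr13:53067763-53069057, 51.5 and 86.7 kb away. Of 16 genes of AP-1, KLF and other early response factors, 6 had members: 12 of 69 were UP and 7 DOWN, a changed share of 27.5% against 31.4% over all members. Most of the 69 were members of Myc (4 UP, 4 DOWN and 33 unchanged), so this share mainly describes the Myc locus. Klf4, a zinc finger factor gene with its TSS in an UP region, had 4 UP and 3 unchanged members, the widest UP member at chr4:55730331-55737100 (198 kb away). Jun, which encodes a subunit of AP-1, had 1 member, UP, at chr4:95160889-95162959 (109 kb away).

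Liver identity genes (LIVER-ID, the study's list of 621 genes, 497 of them matched to protein-coding symbols of the annotation) were nearest to 190 members, of which 33 were UP (17.4%, 12.6 to 23.4) and 25 DOWN (13.2%, 9.07 to 18.7). Ubiquitous genes (UBQ, 657 genes, 498 matched) were nearest to 502, of which 88 were UP (17.5%, 14.5 to 21.1) and 74 DOWN (14.7%, 11.9 to 18.1). Both lists were chosen by the study, and their shares lay within counting error of those of all members. The 43 LIVER-ID transcription factors were nearest to 55 members through 11 genes. Of these members, 7 were UP and 7 DOWN (12.7% each, 6.30 to 24.0), against 18.3% and 13.1% over all members. A list of 22 hepatocyte transcription factors was nearest to 33 members through 5 genes, with 2 UP, 3 DOWN and 28 unchanged. The changed share of these 33 was 15.2% (6.65 to 30.9), against 31.4% over all members. Prox1, a homeobox factor gene of hepatocytes with no TSS in a listed region, had 3 DOWN and 3 unchanged members, the DOWN ones between chr1:190047977 and chr1:190109375. Foxa2, a pioneer factor gene with its TSS in a DOWN region, had 14 members, of which 12 were unchanged and 2 UP (chr2:147960998-147962745 and chr2:148171142-148171533). Onecut1 and Nr5a2, also with TSSs in DOWN regions, had 7 and 4 members, all unchanged. Ahr, the receptor for dioxin, had 1 UP, 3 DOWN and 5 unchanged members, and Sox5 had 3 UP and 1 unchanged. A list of 21 genes of plasma proteins was nearest to 8 members through 3 genes. Of these 8, 3 were UP, 1 DOWN and 4 unchanged (50% changed, 21.5 to 78.5, against 31.4% over all members). Apob, the structural protein of VLDL, had 3 UP and 2 unchanged members, the widest UP member 55.4 kb from its TSS. Igf1 had 1 DOWN member 145 kb away and 1 unchanged member 139 kb away, and Igfbp2 had 1 unchanged member.

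Noncoding genes, here annotated genes of any type that is not protein-coding, pseudogenes included, covered the classes about equally. The midpoint lay in a noncoding gene for 20.3% of UP (17.1 to 23.9), 20.9% of DOWN (17.2 to 25.3) and 17.95% of unchanged members (16.3 to 19.7). It lay in a lincRNA gene for 88 of 538 UP, 70 of 387 DOWN and 273 of 2022 unchanged members. Such genes were allowed by the rule as long as their TSS was more than 1 kb away.

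The sequence under the members was poorer in G and C than that of all regions, with a median GC content of 44.1% against 47.6% and 7.99 against 12.5 CpG per kb. All regions include the promoters, which hold many CpG islands. The medians of the 3 classes lay close together, 43.3% GC for UP, 44.6% for DOWN and 44.1% for unchanged members. Repeats made up a median of 14.8% of the bases of members and 13.8% of those of all regions.

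Short binding elements were then searched on both strands in the central 300 bp of each region, a window of the same length for all. It runs past the edges of regions narrower than 300 bp. The AP-1 element (TGANTCA) occurred in 42.8% of UP members (38.6 to 47.0), 15.8% of DOWN members (12.5 to 19.7) and 28.1% of unchanged members (26.2 to 30.1), against 29.1% of all members and 17.9% of all regions. UP exceeded DOWN members by 26.99 points (21.3 to 32.3). DOWN minus unchanged was -12.3 points (-16.2 to -7.93), but 3.49 points (-1.94 to 8.85) when whole regions were searched. Intergenic regions nearer to genes held it in 36.5% of UP and 13.6% of DOWN regions, a difference of 22.9 points (18.6 to 27.1). The element was concentrated around the midpoint of UP members, where 19.1% and 19.0% had a match in the 100 bp bins on either side. In the outermost bins, 1 kb away, the shares were 4.83% and 4.09%. Unchanged members also peaked at the midpoint, at 12.2% and 10.7%, against 3.36% and 3.56% in the outermost bins. Most members end before the outermost bins (median width 1286.5 bp for UP), so these contrasts are largely with flanking sequence. In DOWN members the same central bins stood at 6.20% and 3.88%. With TGACTCA alone, which with its reverse complement is the usual form, the shares were 34.8% of UP, 11.1% of DOWN and 22.1% of unchanged members.

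The composite ATF4/CHOP element (TTGCATCA) was rarer. It occurred in 31 of 538 UP members (5.76%, 4.09 to 8.06), 5 of 387 DOWN members (1.29%, 0.55 to 2.99) and 1.58% of unchanged members, against 1.45% of all regions. UP exceeded DOWN members by 4.47 points (2.09 to 6.89). Intergenic regions nearer to genes held it in 4.19% of UP and 0.60% of DOWN regions, a difference of 3.59 points (2.08 to 5.27). Over all regions it was in 3.81% of UP and 0.65% of DOWN regions. The antioxidant element bound by NRF2 and small MAF proteins (TGACNNNGC), which can contain an AP-1 element, occurred in 18.6% of UP, 10.9% of DOWN and 14.7% of unchanged members, and the difference of 7.73 points between UP and DOWN (3.09 to 12.2) turned to -5.93 when whole regions were searched.

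**Figure D5:**
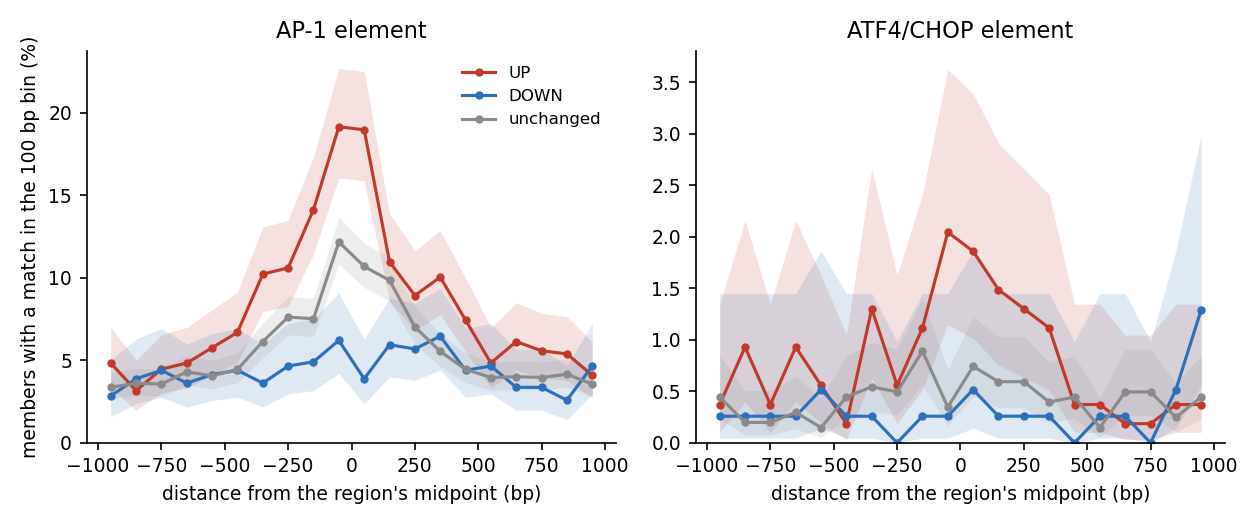
Share (%) of UP, DOWN and unchanged remote regions with a match to the AP-1 element (left) or the ATF4/CHOP element (right) in each 100 bp bin from 1 kb before to 1 kb after the midpoint (bp); bands are 95% Wilson intervals. AP-1 matches peaked at the midpoint of UP members, at 19.1%, and of unchanged members, at 12.2%. They stayed between 2.58% and 6.46% in all bins around the midpoint of DOWN members. The bins run past the edges of most members.

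The elements of hepatocyte factors were searched in the same way. The D-box (TTATGNAA) was in 7.24% of DOWN, 4.46% of UP and 5.93% of unchanged members (UP minus DOWN -2.77 points, -6.12 to 0.25). The HNF4 element (CAAAGTCCA) was in 2.84% of DOWN, 1.30% of UP and 1.53% of unchanged members (UP minus DOWN -1.54 points, -3.82 to 0.30). Neither interval excluded 0, but both did when whole regions, which were widest in the DOWN class, were searched (-7.73 points, -13.6 to -1.91, for the D-box and -3.44 points, -6.95 to -0.25, for HNF4). FOXA (TGTTTNC) was in 30.5% of UP, 31.0% of DOWN and 33.7% of unchanged members, and C/EBP (TTGCNNAA), which can overlap the D-box, in 17.5%, 17.3% and 18.6%. In whole regions UP minus DOWN was -10.6 points for FOXA (-15.6 to -5.32) and -16.1 points for C/EBP (-22.3 to -9.63). CTCF (CNAGGNGGC) was in 2.60%, 2.84% and 2.72% (-7.41 points, -12.3 to -2.72, in whole regions), and the XBP1 and ATF6 element UPRE (TGACGTGG) in 3 UP, 1 DOWN and 5 unchanged members. Over all regions, the shares were 4.09% for the D-box, 1.11% for HNF4, 25.8% for FOXA, 13.2% for C/EBP, 5.39% for CTCF, 14.7% for NRF2/MAF and 0.444% for UPRE. A match is a description of the letters in a window, and its occupancy by a factor was not measured.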

How the data were processed

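H3K27ac was profiled by ChIP-seq in 3 MPH preparations per treatment, with 1 input library each. Per the labels and the study's methods, the authors aligned reads with Bowtie to mm10 and called broad peaks with MACS2 on pooled libraries. They tested 150 bp bins with csaw, paired over the 3 experiments, and combined the bins of a peak. Peaks that passed an FDR of 0.05 were UP with at least 2, and DOWN with at most 0.5, UP bins per DOWN bin, and unchanged peaks did not pass it. Peaks of mixed direction were left out, so a TSS in no listed region may lie in such a peak. The deposited lists hold these positions and classes, with no read counts, no fold values and no p-values, so depth is unknown.

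Regions were placed against all TSSs and gene spans of GENCODE M21, and sequences were read from GRCm38.p6, which has the same chromosome lengths as mm10. Shares have Wilson intervals, differences Newcombe intervals and odds ratios Woolf or Mantel-Haenszel intervals, all at 95%. No p-value was computed. Python 3.11.15, numpy 2.4.6, pandas 2.3.3 and scipy 1.17.1 were used, and the functions were tested on simulated data. Members and gene lists were chosen with earlier results of these data known. Named genes flank the 15 deserts with most changed members (ties by members, then position), are nearest to the 3 widest members of each class, the 3 farthest members or those next to the 50 kb limit, or are on the lists and nearest to a member. Other distances (25 and 100 kb), annotations, width limits, counting units and search windows were tried. The sequence of an ATF4/CHOP match is not reported here.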

Additional observations from a re-analysis of the deposited data

How the results depend on the processing

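No paired analysis was possible because the lists hold no value for a single library, and leaving out replicates was not run for the same reason. Leaving out each chromosome in turn kept all 4 class shares inside their intervals (changed 31.0% to 31.7%, UP 17.9% to 18.6%, DOWN 12.4% to 13.4%, UP among changed 57.3% to 60.05%). A 25 kb limit, protein-coding transcript starts only, whole regions outside protein-coding genes and midpoints outside any gene also left them there. Beyond 100 kb (n = 1719), DOWN was 11.8% and UP among changed 62.0%. Width moved the shares most. For regions of at least 500 bp, 35.0% changed, 19.9% were UP and 15.2% DOWN. For those of at least 1 kb, 40.01% changed, 21.7% were UP, 18.3% DOWN, and 54.2% of the changed were UP. In base pairs, 41.0% changed, 20.4% UP and 20.7% DOWN, so that 49.7% of the changed base pairs were UP. With stretches of 1 class counted once, 33.5% changed and 19.9% were UP. Within deciles of width, the odds ratios against all other regions were 1.47 for changed (1.22 without) and 1.70 for DOWN (1.33 without). Counting stretches once gave 1.09 for changed, members against intergenic regions nearer to genes, with an interval from 0.981 to 1.21; this alternative, that of TGACTCA, that of 1 kb for elements and that of each gene once were chosen after seeing the data. Of regions of at least 500 bp, the median width was 1353.5 bp for UP and 1190 bp for unchanged members. With gaps between genes of any type, 3 deserts had 5 or more changed members instead of 24, and the first was that of the 6 DOWN members beside Errfi1. In whole regions, UP minus DOWN was 7.33 points for ATF4/CHOP and 18.6 for AP-1, and for NRF2/MAF it reversed to -5.93. The same search gave -16.1 for C/EBP, -10.6 for FOXA, -7.73 for the D-box, -7.41 for CTCF and -3.44 for HNF4, intervals that all excluded 0 and did not in the central window, and 0.09 for UPRE. Whole regions differ in width between the classes. Depth, which limits every call, is unknown.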
